A study of Rattus norvegicus with 9 samples.

Results

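The comparison set the average of both Yap1 vectors against the GFP control vector in cultured rat heart muscle cells. Its members are libraries chosen by their vector label, 9 of the 9 libraries of the series. Yap1 WT and Yap1 shRNA, with 3 libraries each, entered with equal weight against 3 GFP libraries. The question was which transcripts differed from GFP on average under vectors that move Yap1 itself in opposite directions.

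All groups were primary cardiomyocytes from Sprague-Dawley (SD) rats 1 to 2 days old, not an established line. The cells were plated for 18 to 20 h in 10% serum and then kept for 14 h in 1% serum with 1 g/L glucose. Each group then spent 48 h in 33 mM glucose with 100 nM insulin, so both are shared by the controls. The groups differed in the adenovirus: Ad-GFP, Ad-Yap1 WT (wild-type Yap1) or Ad-Yap1 shRNA (a short hairpin RNA against Yap1). No group used here carried a control hairpin, and viral dose and the promoter that drives each insert are not given in the sources used here. GFP cells without added glucose and insulin, which the labels mention, were not analysed here. The labels do not say whether replicates came from separate isolations, so p-values measure only the spread between these samples, which may be technical.

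YAP1 is a transcriptional coactivator that works through TEAD factors and is held in the cytoplasm when the Hippo kinases phosphorylate it. In the heart it is known for its role in cardiomyocyte growth and proliferation. Cells also carry receptors for foreign nucleic acid, whose signalling leads through IRF and STAT factors to interferon-stimulated genes and through NF-kappa-B to chemokines.

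GFP libraries held 14868180 to 15368473 assigned reads, Yap1 WT libraries 10960051 to 11497104 and Yap1 shRNA libraries 6103221 to 6357403, so depth moved with the groups. Levels are given as CPM, each gene's reads scaled to a common library total after TMM scaling. Replicates 1 and 2 of Yap1 WT differed more than any other pair of a group, with a chi-square of 11.4 per gene against 2.31 to 4.77 in the other pairs. All 10 cardiomyocyte markers were measured, and their summed level was 44827 to 45362 CPM in GFP libraries. Erythroid markers summed to at most 0.799 CPM in any library.

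Yap1 (chromosome 8, 6109474 to 6204240, minus strand, rn6) moved in opposite directions under the vectors. It stood at 197, 198 and 190 CPM in GFP libraries, at 559, 812 and 622 CPM with Yap1 WT and at 95.4, 96.0 and 95.3 CPM with the hairpin. Every Yap1 WT library lay above and every hairpin library below the GFP range, so the 6 vector libraries overlapped GFP as a set. The average of the vectors was 0.37 above GFP on the log2 scale (SE 0.09, edgeR adjusted p = 0.0027), made of 1.77 and -1.03. With the 6 vector libraries treated as 1 group the call was lost (0.97, edgeR adjusted p = 0.303). Sirt1, the deacetylase named in the study's title, read 20.1, 20.5 and 19.9 CPM with GFP, 26.6, 34.4 and 28.5 with Yap1 WT and 91.1, 84.9 and 90.8 with the hairpin. All 6 vector libraries were above GFP, and the average rise was 1.35 (SE 0.08, edgeR adjusted p = 4.46e-09).

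**Figure D1:**
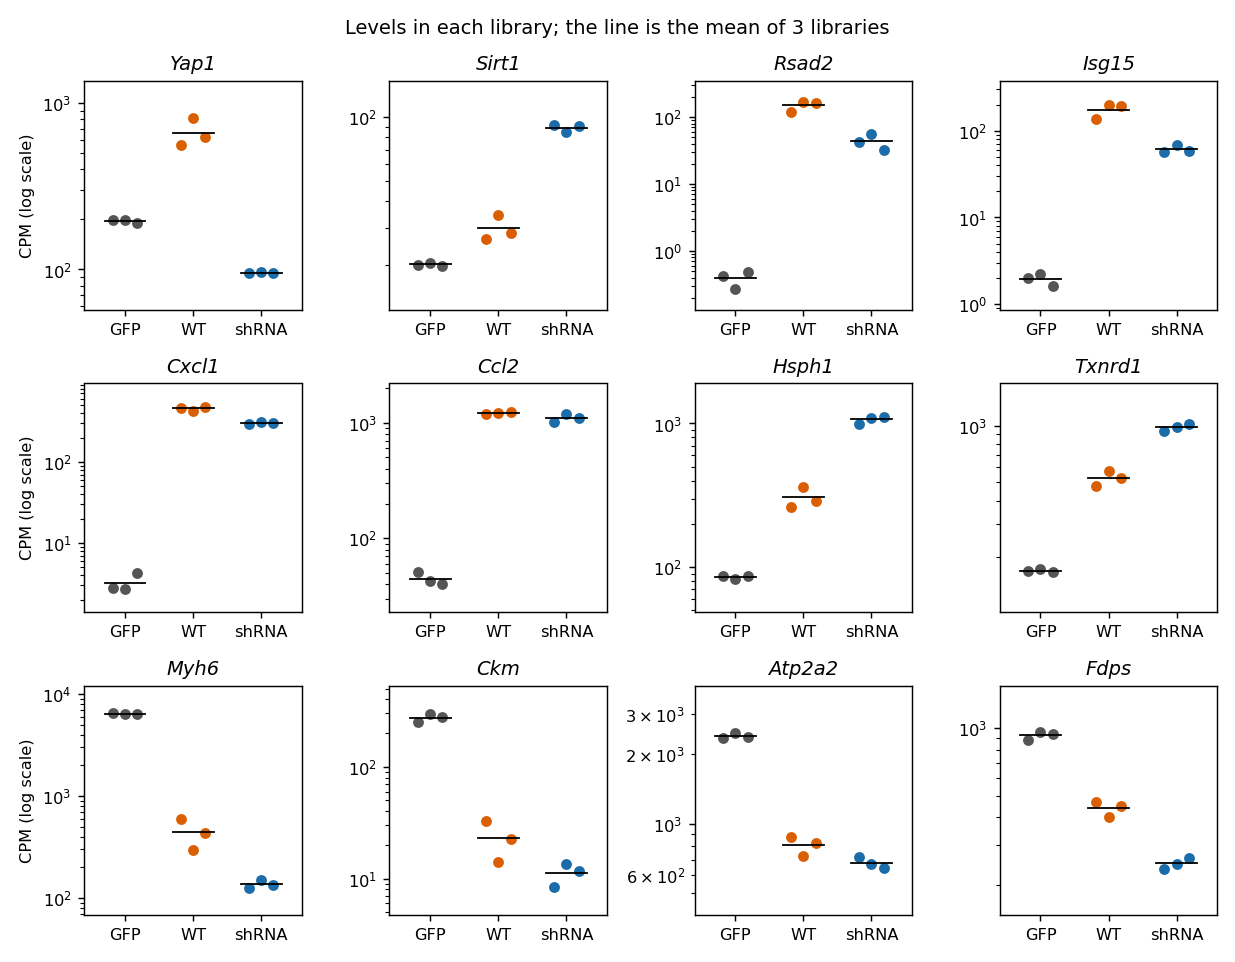
CPM on a log axis of 12 genes in each library, with points for libraries and a line at the mean of 3 libraries in the GFP, Yap1 WT and Yap1 shRNA groups. Yap1 is above GFP in 3 vector libraries and below it in the other 3, while the other 11 genes have all 6 vector libraries on the same side of GFP.

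The average of the vectors differed from GFP in most genes. Of 13708 genes tested, 5254 (38.3%) were higher and 5219 (38.1%) were lower on average, by edgeR's quasi-likelihood test with Benjamini-Hochberg adjustment at 0.05. Changes of at least 1 on the log2 scale numbered 1874 upwards (13.7% of genes tested) and 1554 downwards (11.3%). The median gene was at 0.00, and the middle 50% of genes lay between -0.53 and 0.56. The 6 vector libraries all lay above the 3 GFP libraries for 3951 genes (28.8%) and all below them for 4102 (29.9%). Among the 10473 called genes, 2445 had vector libraries that overlapped GFP. On the deposited TPM the split was 6346 higher and 3839 lower, or 62.3% of calls higher in place of 50.2%, with the median gene shifted to 0.155. Relative to that shift, the list medians given here kept their direction except where stated.

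The vectors also differed from each other in many of these genes. Yap1 WT was above the hairpin for 4273 genes (31.2%) and below it for 4289 (31.3%). Taken alone, Yap1 WT against GFP gave 32% higher and 31.8% lower, and the hairpin against GFP gave 39.2% higher and 39.1% lower. Those comparisons share the same GFP libraries, so their values are set side by side for each gene and not related to each other. Of the 3428 called genes with an average of at least 1 in size, 2503 also differed between the vectors and 925 did not pass that test.

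**Figure D2:**
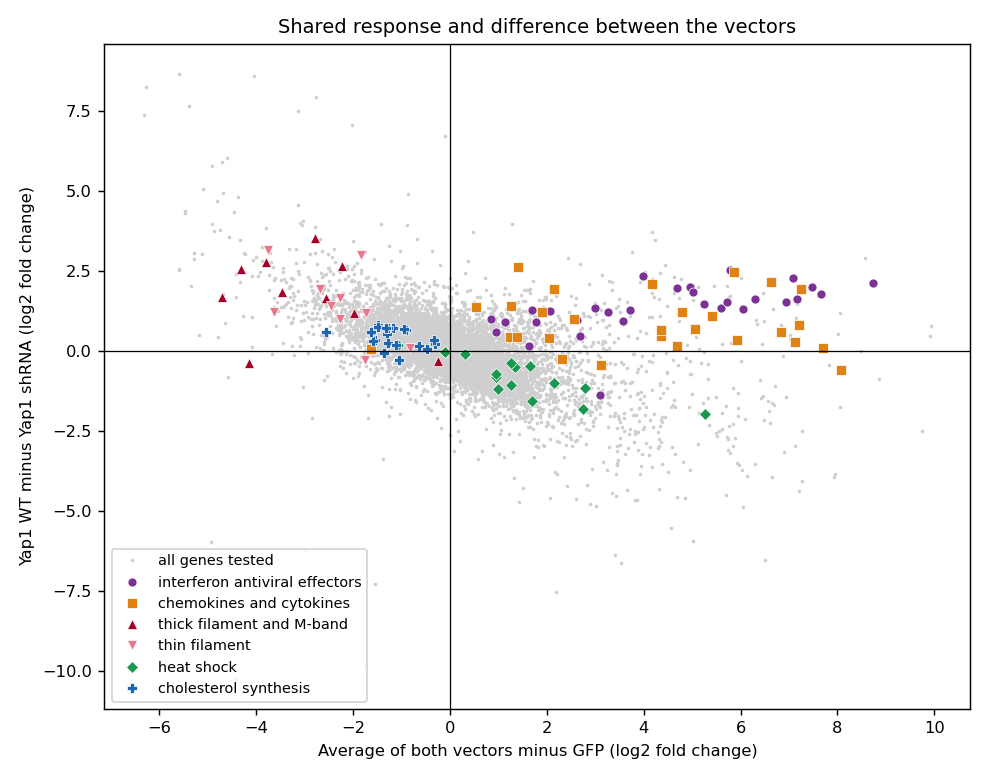
Each point is a gene tested, with the average log2 fold change of both vectors against GFP on the horizontal axis and Yap1 WT minus Yap1 shRNA (log2) on the vertical axis. Antiviral and chemokine genes, except Il15 on the left, lie to the right and mostly above 0. Heat shock genes lie mostly to the right and below 0, and filament genes to the left and mostly above 0.

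Interferon-stimulated antiviral genes rose in both vector groups. All 30 tested members of the list were higher than GFP on average (median log2 fold change 4.33, against 0.00 for all genes), and in all 30 the 6 vector libraries lay above GFP. The median was 5.41 with Yap1 WT and 3.75 with the hairpin, and 28 of 30 were higher with Yap1 WT in the direct test, while Isg20, an exonuclease, was lower (2.41 against 3.79). Oas2 had 0 counts in GFP, and setting it to its lower bound left the median at 4.33.

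Rsad2, the antiviral enzyme viperin (chromosome 6, 45655947 to 45669083, minus strand, rn6), read 0.416, 0.271 and 0.476 CPM with GFP. It read 119, 168 and 165 CPM with Yap1 WT and 42.8, 56.3 and 32 CPM with the hairpin. The Yap1 WT libraries were highest, the hairpin libraries lay between, and no group overlapped another. The average rise was 203-fold (log2 7.67, SE 0.30, edgeR adjusted p = 1.47e-10), with 8.56 and 6.77 under the vectors, and 4.89 on log2(TPM + 1). Isg15, the ubiquitin-like modifier, went from 2.01, 2.23 and 1.63 CPM to 138, 197 and 191 CPM with Yap1 WT and 56.4, 68.2 and 58.0 CPM with the hairpin. Its average rise was 52.4-fold (log2 5.71, SE 0.18, edgeR adjusted p = 3.72e-11).

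Other effectors were also higher with Yap1 WT than with the hairpin. The GTPase Mx2 read 2.78, 0.812 and 0.136 CPM with GFP and 394, 447 and 483 CPM with Yap1 WT. With the hairpin it read 98.9, 145 and 92.1 CPM, and the average rise of 7.48 (log2) became 8.83 without GFP replicate 1. Oasl2, of the oligoadenylate synthetase-like family, rose by 5.25, Parp14 by 3.27 and the RNA-activated kinase Eif2ak2 by 2.68 on average. Rtp4, outside the list, rose by 7.16, and by 4.50 on log2(TPM + 1). Oas2 was at least 149-fold higher with Yap1 WT and at least 34.2-fold higher with the hairpin, over a floor of 3 counts for the GFP group. Mx1 and Mx2, and the Oas genes, are near copies, so the division of reads among them is uncertain.

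The sensors upstream and the factors downstream of interferon receptors moved less. Of 11 nucleic acid sensors and adaptors tested, 9 rose and 2 fell (median 1.5). The RNA helicases Dhx58, Ifih1 and Ddx58 (RIG-I) rose by 5.02, 2.84 and 2.75, while the adaptor Mavs fell by 1.10 on the log2 scale. Ifih1 read 7.35, 6.77 and 7.20 CPM with GFP, 68.5, 73.9 and 81.7 CPM with Yap1 WT and 34.5, 42.2 and 28 CPM with the hairpin. Its groups did not overlap.

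Of 19 genes of interferon receptors, kinases and factors, 14 rose and 2 fell (median 0.65), and the fall of Ifngr2 was lost on TPM. Irf7, a factor that drives interferon genes, went from 4.58, 2.71 and 3.40 CPM to 266, 404 and 367 CPM with Yap1 WT and 95.9, 140 and 89.9 CPM with the hairpin. On average it rose 54.2-fold (log2 5.76, SE 0.23, edgeR adjusted p = 1.81e-10). The partners Irf9 and Stat2 rose by 1.95 and 1.51 and the kinase Jak2 by 1.3. Ifnb1, the interferon beta gene, was too low to test, with 0 counts in each GFP and hairpin library and at most 1 count in a Yap1 WT library.

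Of 13 genes of class I antigen presentation, 11 rose and 2 fell (median 0.94), and the direct test put 12 higher in the Yap1 WT group than in the hairpin group. Tap1, a subunit of the peptide transporter, read 17.3, 15.8 and 16.1 CPM with GFP, 103, 111 and 116 CPM with Yap1 WT and 61.0, 73.7 and 56.5 CPM with the hairpin. The immunoproteasome subunit Psmb8 rose by 3.28, Tap1 by 2.35, Tap2 by 1.64 and Tapbp by 1.28 on average. The call for Calr, lower by 0.12, was lost with library size scaling alone, and on TPM Calr stood at 0.07 without passing.

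Promoters of 3 members that rose are shown because each holds the same short motif. Irf7 is 1 of the 2 interferon signalling genes with a match. The window ran from 250 bases before to 50 after each RefSeq start in GRCr8, and 10785 of the 13708 genes tested matched at least 1 window (12236 windows). The interferon-stimulated response element was searched as GAAANNGAAA on both strands. It stood in 15 of 23 windows of the antiviral list (65.22%) and 7 of 10 of the antigen presentation list (70%), against 2.93% of all windows. It was less frequent in the other lists searched, at 2 of 6 windows of the sensors (33.33%), 2 of 15 of interferon signalling (13.33%) and 2 of 21 of the chemokines and cytokines (9.52%). The 150 bases before the start follow, with the match in capitals. They are Rsad2 (chr6:48788121-48788270, minus strand), Irf7 (chr1:205800024-205800173, minus strand) and Tap1 (chr20:4668544-4668693, minus strand), read from the gene's strand. In these 3 the match lies on the opposite strand.
Rsad2: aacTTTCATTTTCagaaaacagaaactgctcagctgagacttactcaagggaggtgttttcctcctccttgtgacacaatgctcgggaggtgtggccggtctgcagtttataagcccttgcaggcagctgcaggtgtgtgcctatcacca
Irf7: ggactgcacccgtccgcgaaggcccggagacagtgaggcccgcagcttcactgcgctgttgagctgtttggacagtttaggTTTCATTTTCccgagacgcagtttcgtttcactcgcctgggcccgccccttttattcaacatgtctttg
Tap1: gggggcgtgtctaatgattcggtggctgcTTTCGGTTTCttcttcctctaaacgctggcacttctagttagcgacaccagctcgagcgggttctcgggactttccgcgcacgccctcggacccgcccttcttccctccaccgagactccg
A match is a description of the letters and not a measured binding site.

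Most chemokines and cytokines rose. Of 28 tested, 27 rose and 1 fell (median 4.36), and in 25 the 6 vector libraries all lay above GFP. The fall was Il15 (by 1.64 on the log2 scale), a lymphocyte growth factor. The medians were 4.71 with Yap1 WT and 4.08 with the hairpin. In the direct test 19 were higher with Yap1 WT, 2 were lower and 7 did not pass.

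Ccl2, the monocyte chemoattractant (chromosome 10, 69412065 to 69413863, plus strand, rn6), had nearly equal levels under the vectors. It read 51.6, 42.7 and 40.8 CPM with GFP, 1188, 1222 and 1224 CPM with Yap1 WT and 1020, 1194 and 1096 CPM with the hairpin. The average rise was 25.7-fold (log2 4.68, SE 0.09, edgeR adjusted p = 1.37e-12). Yap1 WT minus hairpin was 0.13, with a 95% interval of -0.03 to 0.30. Cxcl6 also differed little between the vectors (0.10, interval -0.15 to 0.34), at 0.347, 0.203 and 0.272 CPM with GFP, 54.5, 69.3 and 61.4 CPM with Yap1 WT and 66.0, 59.6 and 47.3 CPM with the hairpin. Its average rise was 209-fold (log2 7.71), and 6.05 on log2(TPM + 1).

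The neutrophil chemokine Cxcl1 read 2.78, 2.71 and 4.21 CPM with GFP, 467, 426 and 478 CPM with Yap1 WT and 298, 314 and 299 CPM with the hairpin. Its average rise was 115-fold (log2 6.84, SE 0.11, edgeR adjusted p = 4.59e-13). Cxcl3 rose by 7.21 and Ccl7 by 5.93 on average. Cxcl2 had 3 counts in the GFP group, so its ratio was 178 with Yap1 WT (95% counting interval 60.4 to 866) and 148 with the hairpin (49.9 to 724). Its fitted average of 7.12 became 7.90 without GFP replicate 3. Csf2, a myeloid growth factor at 0 counts in GFP, was at least 36.3-fold and at least 55.7-fold higher. Reads of Cxcl1, Cxcl2, Cxcl3 and Cxcl6 may be divided wrongly among these similar genes.

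All 18 NF-kappa-B subunits, kinases and feedback genes were higher on average (median 0.66), and 11 had all 6 vector libraries above GFP. Taken alone, Yap1 WT had all 18 higher, and the hairpin had 12 higher and 2 lower, Nfkb2 (-0.24) and Tnip1 (-0.12). The largest rises were in genes that restrain or modulate the pathway. Nfkbiz rose by 3.14, the inhibitor Nfkbia by 2.00 and the deubiquitinase Tnfaip3 by 1.96 on average. Tnfaip3 read 8.12, 9.20 and 8.97 CPM with GFP, 40.9, 25.8 and 36.8 CPM with Yap1 WT and 35.6, 35.8 and 30.3 CPM with the hairpin. Its libraries overlapped between the vectors, whose difference was 0.03 (95% interval -0.28 to 0.34).

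The kappa-B motif, searched by its consensus on both strands, stood in 9 of 21 chemokine and cytokine windows (42.86%) and in 10 of 14 of the NF-kappa-B list (71.43%), against 10.02% of all windows. It stood in 4 of 10 antigen presentation windows (40%) and 3 of 23 antiviral windows (13.04%). The 3 promoters below are those of the chemokines just described. They are Cxcl1 (chr14:17479322-17479471, minus strand), Cxcl2 (chr14:17467256-17467405, minus strand) and Cxcl6 (chr14:17596418-17596567, minus strand), in GRCr8, with the overlapping matches of both strands in capitals.
Cxcl1: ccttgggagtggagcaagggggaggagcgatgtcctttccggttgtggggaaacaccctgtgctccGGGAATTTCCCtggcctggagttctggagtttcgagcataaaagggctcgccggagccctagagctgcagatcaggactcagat
Cxcl2: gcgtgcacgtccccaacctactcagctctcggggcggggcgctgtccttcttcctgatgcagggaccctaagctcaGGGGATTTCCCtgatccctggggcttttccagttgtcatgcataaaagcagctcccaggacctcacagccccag
Cxcl6: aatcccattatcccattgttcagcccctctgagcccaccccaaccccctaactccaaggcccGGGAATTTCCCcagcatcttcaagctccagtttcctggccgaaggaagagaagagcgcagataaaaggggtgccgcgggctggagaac
Each sequence is the 150 bases before the start.

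Stress genes rose under both vectors, and mostly more with the hairpin. Of 25 genes on an NRF2 and antioxidant list, 23 rose and 1 fell (median 0.94), with 15 lower and 4 higher in Yap1 WT than in the hairpin group. The list includes NRF2 itself (Nfe2l2), Keap1 and the metallothioneins Mt1 and Mt2A, so not every member is an NRF2 target. Txnrd1, thioredoxin reductase, read 168, 172 and 167 CPM with GFP, 476, 576 and 525 CPM with Yap1 WT and 941, 989 and 1023 CPM with the hairpin. The groups did not overlap, and the average rise was 4.26-fold (log2 2.09, SE 0.06, edgeR adjusted p = 3.7e-11). The sulfiredoxin Srxn1 rose by 3.27, the cystine transporter Slc7a11 by 1.76 and the glutathione synthesis enzyme Gclc by 1.4.

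Of 15 heat shock genes, 13 rose and 1 fell (median 1.27), and none was higher with Yap1 WT than with the hairpin while 12 were lower. The fall was Hspb7, a small heat shock protein of heart muscle. Hsph1, a cochaperone of HSP70 (chromosome 12, 6322685 to 6341898, minus strand, rn6), read 86.7, 82.7 and 86.5 CPM with GFP. It read 264, 362 and 291 CPM with Yap1 WT and 996, 1095 and 1111 CPM with the hairpin. This was a 6.69-fold rise on average (log2 2.74, SE 0.09, edgeR adjusted p = 5.89e-11). Hspb8, Hsp90aa1 and the cochaperone Bag3 rose by 2.78, 2.15 and 1.69.

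The antioxidant response element, searched as TGACNNNGC on both strands, stood in 8 of 21 windows of the NRF2 list (38.1%) against 14.18% of all. The matches were in Gclm, Prdx1, Sod2, Txnrd1, Nfe2l2, Mt1, Mt2A and Me1. Of these, Me1 was not called, and Nfe2l2, Mt1 and Mt2A are among the members set apart above. The heat shock element, searched as GAANNTTCNNGAA, stood in 5 of 13 heat shock windows (38.46%) against 0.42% of all. The windows of Hspd1 and Hspe1, on opposite strands, overlap and share the same matches, so they are not separate sites. An example of each is printed, 150 bases before the start in GRCr8 with the match in capitals: Txnrd1 (chr7:22755905-22756054, minus strand) and Hsph1 (chr12:10427218-10427367, plus strand). Txnrd1 has 2 windows in RefSeq, of which 1 is shown.
Txnrd1: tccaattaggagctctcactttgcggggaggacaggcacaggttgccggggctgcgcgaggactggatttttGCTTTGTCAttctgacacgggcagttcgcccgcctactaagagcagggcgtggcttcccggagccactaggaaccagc
Hsph1: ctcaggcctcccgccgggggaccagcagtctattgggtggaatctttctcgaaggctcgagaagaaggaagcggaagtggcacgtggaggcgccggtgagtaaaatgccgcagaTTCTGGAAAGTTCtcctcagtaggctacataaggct

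Among 26 genes of the p53 pathway and apoptosis, 23 rose and 2 fell (median 0.77). The cell cycle inhibitor Cdkn1a read 153, 158 and 169 CPM with GFP, 477, 559 and 517 CPM with Yap1 WT and 1535, 1498 and 1486 CPM with the hairpin. It rose 5.52-fold on average (log2 2.47, SE 0.06, edgeR adjusted p = 9.28e-12). The p53 ligase Mdm2 rose by 2.82, the stress sensor Sesn2 by 2.46 and Btg2 by 1.41. The survival gene Bcl2 fell by 1.26 on the log2 scale.

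Endoplasmic reticulum and integrated stress genes were mixed, with 15 of 23 higher and 4 lower (median 0.41). Atf3, a stress-induced transcription factor, went from 10.5, 12.3 and 12.6 CPM to 49.7, 97.8 and 72.1 CPM with Yap1 WT and 557, 592 and 612 CPM with the hairpin. Its average rise was 4.13, made of 2.63 and 5.63. Ppp1r15a rose by 2.20, the cochaperone Dnajb9 by 1.80 and the chaperone Hspa5 by 1.17. Of 26 immediate early and MAP kinase feedback genes, 19 rose and 4 fell (median 0.75), and 19 were lower with Yap1 WT than with the hairpin. Fosl1, a subunit of AP-1, rose by 4.30 (3.03 and 5.56), the phosphatase Dusp2 by 4.80 (3.06 and 6.55), Myc by 2.14 and Fos by 1.72. On TPM the falls of Sdf2l1, Nr4a1 and Spry4 in these lists were lost.

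**Figure D3:**
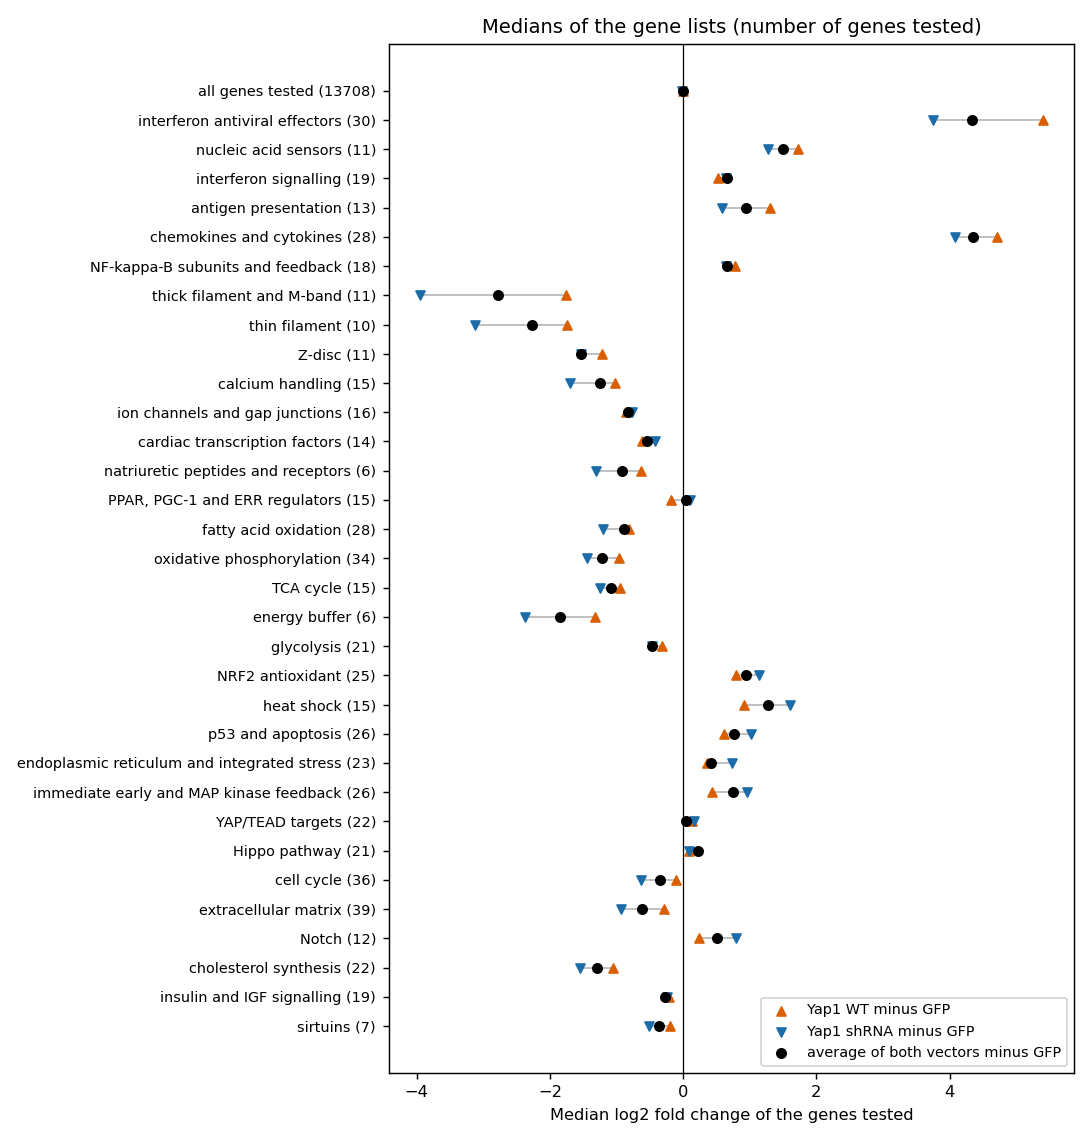
Median log2 fold change of the tested genes of each list, with the number tested in brackets: black circles for the average of both vectors minus GFP, upward triangles for Yap1 WT minus GFP and downward triangles for Yap1 shRNA minus GFP. Antiviral (4.33) and chemokine (4.36) genes have the highest averages, and thick filament genes (-2.78) the lowest.

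Transcripts of the contractile apparatus fell under both vectors. All 11 thick filament and M-band genes (median -2.78) and all 10 thin filament genes (median -2.27) were lower on average. Of 11 Z-disc genes, 10 fell and Flnc, filamin C, rose (median -1.53). On TPM 8 were lower, with the calls for Xirp1 and Cryab lost, and under Yap1 WT alone these stood at 0.23 and 0.01. The median of thick filament genes was -1.76 with Yap1 WT and -3.95 with the hairpin, and the direct test put 9 of 11 higher in the Yap1 WT group. With RLE scaling, library size alone or TPM, 10 of the 11 thick filament and M-band genes were called lower. In bulk libraries, fewer cardiomyocytes and less RNA of these genes per cardiomyocyte cannot be told apart.

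Myh6, the alpha cardiac myosin heavy chain (chromosome 15, 33605653 to 33629730, minus strand, rn6), read 6560, 6433 and 6308 CPM with GFP. It read 593, 296 and 436 CPM with Yap1 WT and 125, 151 and 134 CPM with the hairpin. No groups overlapped, and the average fall was 26.2-fold (log2 -4.71, SE 0.15, edgeR adjusted p = 4.25e-11). Myh7, the beta chain, read 10927, 10474 and 10280 CPM with GFP, 2541, 1453 and 1961 CPM with Yap1 WT and 280, 320 and 278 CPM with the hairpin. Its average fall was 13.9-fold. These myosins are similar in sequence, so reads may be split between them.

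Myom2, of the M-band, was lower with Yap1 WT than with the hairpin, unlike most filament genes. It read 140, 145 and 135 CPM with GFP, 7.78, 5.99 and 6.92 CPM with Yap1 WT and 7.67, 9.95 and 9.5 CPM with the hairpin. Yap1 WT minus hairpin was -0.39 (95% interval -0.68 to -0.10). Csrp3, a Z-disc stretch-response protein, read 937, 937 and 960 CPM with GFP, 320, 327 and 342 CPM with Yap1 WT and 298, 345 and 332 CPM with the hairpin. Its difference between the vectors was 0.02 (-0.11 to 0.15). The troponins Tnni1, Tnnc1, Tnni3 and Tnnt2 had average log2 fold changes of -3.62, -2.69, -2.28 and -2.27, all called lower.

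The Z-disc genes Ldb3, Myoz2 and Actn2 were called lower, with averages of -3.39, -2.6 and -2.43. The CArG box, the motif bound by SRF and searched by its consensus, stood in 3 of 10 thin filament windows (30%), 1 of 11 Z-disc windows (9.09%) and 1 of 8 thick filament windows (12.5%), against 1.39% of all. It also stood in 4 of 19 windows of the immediate early list (21.05%), most of whose members rose, and in 0 of 5 windows of the smooth muscle markers, most of which fell. The Z-disc match, in Ldb3 (chr16:9924680-9924829, minus strand, GRCr8), is shown in capitals in the 150 bases before the start.
Ldb3: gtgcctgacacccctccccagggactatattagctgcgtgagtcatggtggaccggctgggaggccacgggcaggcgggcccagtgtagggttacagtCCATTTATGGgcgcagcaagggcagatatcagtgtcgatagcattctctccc
SRF itself (Srf) read 182, 190 and 195 CPM with GFP, 115, 97.1 and 111 CPM with Yap1 WT and 99.2, 98.7 and 99.4 CPM with the hairpin, a fall of 0.87 on the log2 scale.

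Calcium handling genes fell in 11 of 15 cases and rose in 2 (median -1.25). Phospholamban (Pln), which restrains the calcium pump, fell 13.3-fold and the calcium-binding Casq2 4.92-fold. Atp2a2, the pump SERCA2, read 2361, 2470 and 2380 CPM with GFP, 880, 728 and 822 CPM with Yap1 WT and 716, 672 and 646 CPM with the hairpin. It fell 3.24-fold on average, and the sodium-calcium exchanger Slc8a1 3.31-fold. Of 16 ion channel and gap junction genes, 11 fell and 3 rose (median -0.82), with the potassium channels Kcnq1 and Kcnh2 (-2.59 and -2.3) among the falls. On TPM the calls for Kcnd2 (higher) and Hcn2 (lower) were lost.

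Cardiac transcription factors fell less than the genes of the sarcomere. Of 14 tested, 10 fell, 4 did not pass and none rose (median -0.54). With library size alone 1 was called higher, and on TPM 1 was higher and 7 lower, with the calls for Mef2c, Mef2d and Tbx5 lost. Nkx2-5 read 148, 166 and 167 CPM with GFP, 105, 101 and 120 CPM with Yap1 WT and 74.6, 71.0 and 71.5 CPM with the hairpin, an average of -0.85. Gata6 fell by 0.70 on the log2 scale and differed little between the vectors (0.06, 95% interval -0.07 to 0.18). Irx4, a ventricular factor, was lower with Yap1 WT (9.10, 5.30 and 7.35 CPM) than with the hairpin (36, 30.7 and 26.9 CPM), against 43.2, 52.6 and 49.5 CPM with GFP. Its average was -1.69, and its call was lost with the 6 vector libraries as 1 group (edgeR adjusted p = 0.0571).

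Of 6 natriuretic peptide genes, 5 fell and Corin, the protease that activates the peptides, rose (median -0.91). The peptide Nppa read 3111, 2899 and 3192 CPM with GFP, 2165, 1733 and 2054 CPM with Yap1 WT and 309, 437 and 366 CPM with the hairpin. Its average of -1.84 was made of -0.63 and -3.05, and Nppb had -0.26 and -2.02. As 1 group of 6, the vectors did not pass for either (edgeR adjusted p = 0.0856 and 0.136). On TPM the call for the receptor Npr3 was lost.

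Energy metabolism genes fell with the contractile genes. All 6 genes of the energy buffer were lower (median -1.85). Myoglobin (Mb), which stores oxygen, read 243, 281 and 260 CPM with GFP, 11.3, 4.87 and 9.40 CPM with Yap1 WT and 5.11, 6.24 and 6.92 CPM with the hairpin. The vectors overlapped each other, and the average fall was 36.2-fold (log2 -5.18, SE 0.13, edgeR adjusted p = 1.14e-11). The muscle creatine kinase Ckm fell 17-fold.

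All 34 tested nuclear genes of oxidative phosphorylation fell (median -1.21), each with all 6 vector libraries below GFP. Atp5f1a, of the ATP synthase, read 1433, 1500 and 1517 CPM with GFP, 767, 683 and 706 CPM with Yap1 WT and 505, 525 and 537 CPM with the hairpin. Its average fall was 2.42-fold, while Ndufv2 of complex I fell 2.90-fold. The heart and muscle isoforms Cox8b and Cox6a2 of cytochrome oxidase had averages of -5.47 and -2.12. Cox8b rests on few reads with the hairpin, and its average became -6.29 without hairpin replicate 2.

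All 15 genes of the TCA cycle and pyruvate dehydrogenase were lower (median -1.08), among them Idh2 (-1.47), Dlat (-1.37) and Pdha1 (-1.32). The smallest fall, of the citrate synthase Cs (-0.15), lost its call with library size alone and stood at 0.04 on TPM without passing. Of 28 fatty acid oxidation genes, 22 fell and 5 rose (median -0.88). The call for Eci2 (-0.18) was lost with library size alone, and it stood at 0.01 on TPM. The fatty acid carrier Cd36 fell 5.52-fold, the binding protein Fabp3 3.65-fold, the dehydrogenase Acadm 3.12-fold and Etfb 2.93-fold.

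Of 15 PPAR, PGC-1 and ERR genes, regulators of this metabolism, 6 rose and 6 fell, or 40% each way, near the 38.3% and 38.1% of all genes (median 0.04, and -0.02 with no count filter). Ppara read 26.2, 27.3 and 23.6 CPM with GFP, 10.5, 8.98 and 8.89 CPM with Yap1 WT and 4.47, 4.55 and 5.31 CPM with the hairpin, an average of -1.93. Pparg, a relative linked to fat storage, went the other way, from 2.36, 1.69 and 1.97 CPM to 9.27, 15.2 and 10.3 CPM and 25.7, 26.5 and 29.1 CPM, an average of 3.14. The coactivator Ppargc1a fell by 1.36 on the log2 scale, and the corepressor Nrip1 rose by 1.23.

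Of 21 glycolysis genes, 15 fell and 4 rose (median -0.47). The falls included the enzymes Pgam2 (-4.34), Ldhb (-2.69), Pfkm (-2.47) and Eno3 (-1.89) and the insulin-responsive glucose transporter Slc2a4 (-2.01). The 4 rises were the glucose transporter Slc2a1 (0.87), the hexokinase Hk2 (0.83), Pkm (0.18) and Eno1 (0.11). Each of these 4 had all 6 vector libraries above GFP. Aldoa (-0.12) and Pgk1 (-0.16) lost their calls with library size alone and stood at 0.06 and 0.03 on TPM without passing.

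All 22 cholesterol synthesis and uptake genes fell (median -1.29), each with all 6 vector libraries below GFP. Fdps, which makes farnesyl pyrophosphate (chromosome 2, 188403595 to 188413219, minus strand, rn6), read 888, 956 and 938 CPM with GFP. It read 468, 400 and 451 CPM with Yap1 WT and 237, 248 and 264 CPM with the hairpin. The groups did not overlap, and the average fall was 2.80-fold (log2 -1.49, SE 0.06, edgeR adjusted p = 9.78e-11). Insig1, the sterol-sensing brake on the pathway, read 412, 449 and 421 CPM, 174, 144 and 168 CPM, and 172, 168 and 167 CPM in the same order of groups. Its vectors differed by -0.06 (95% interval -0.22 to 0.09). On TPM the call for Scap was lost.

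**Figure D4:**
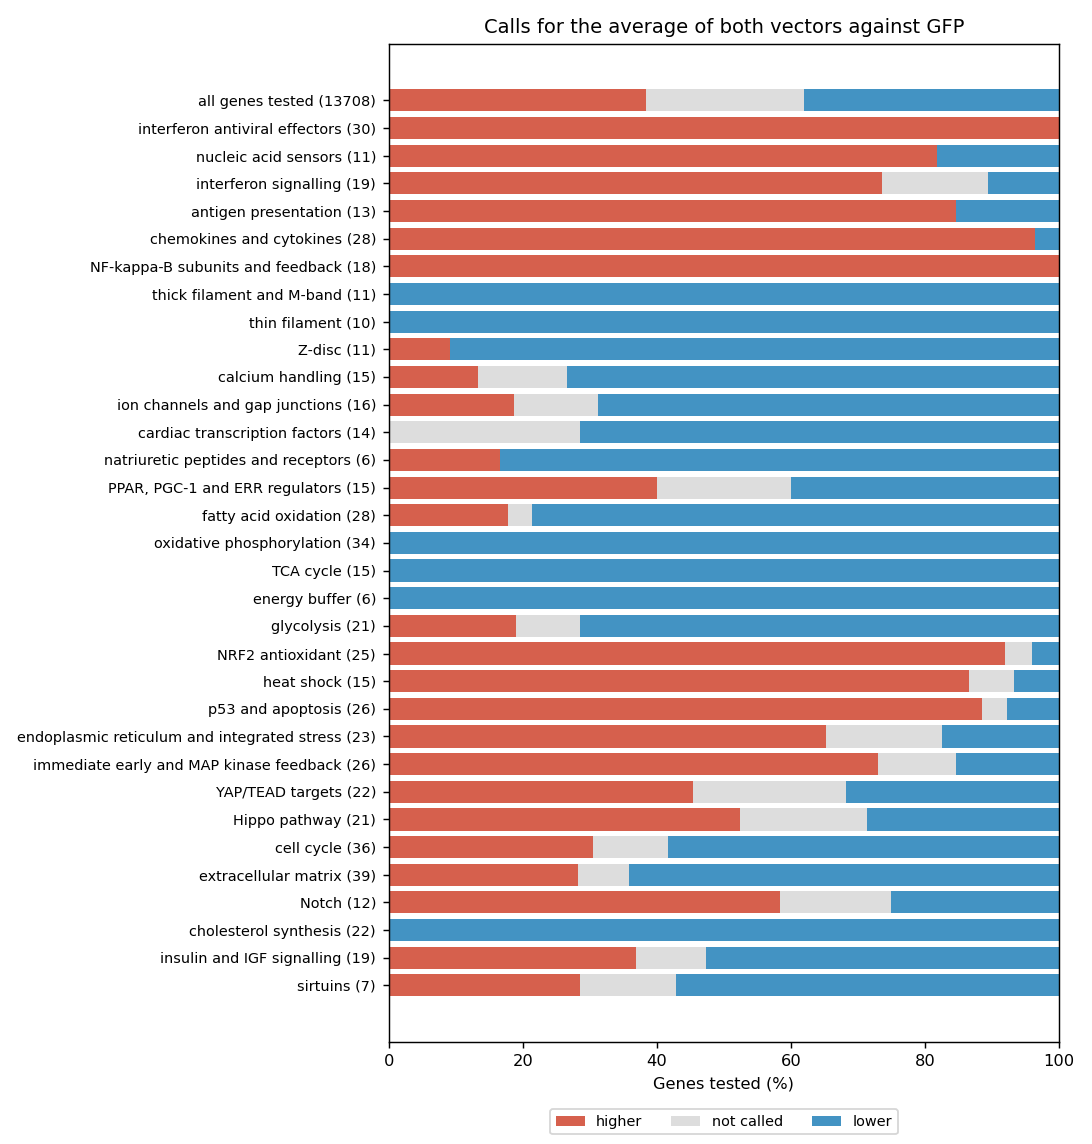
Share of the tested genes of each list called higher, not called or called lower for the average of both vectors against GFP, in percent, with all genes tested (38.3% higher, 38.1% lower) as the top bar. All 30 antiviral and 18 NF-kappa-B genes are higher, and all 34 oxidative phosphorylation and 22 cholesterol genes are lower.

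Targets of YAP and TEAD did not move as a block. Of 22 tested, 10 rose and 7 fell, and 5 did not pass (45.5% and 31.8%, near the shares of all genes). Their median was 0.05, and it turned to -0.02 with no count filter or without Yap1 WT replicate 1, and to -0.03 without hairpin replicate 1. Ankrd1, a cardiac stress protein and usual reporter of YAP, read 5613, 5922 and 5987 CPM with GFP. It read 2028, 1672 and 1848 CPM with Yap1 WT and 1359, 1805 and 1681 CPM with the hairpin, an average of -1.76. The vectors overlapped, with a difference of 0.20 (95% interval -0.01 to 0.40).

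Among other targets, Ccn2 fell by 0.83 on the log2 scale, and Gadd45a, Igfbp3 and Nuak2 rose by 2.14, 1.84 and 1.36. Igfbp3 read 29.6, 35.2 and 29.2 CPM with GFP, 99.1, 120 and 101 CPM with Yap1 WT and 114, 130 and 108 CPM with the hairpin, and the vectors overlapped. Set directly against the hairpin, Yap1 WT gave higher levels for 7 of the 22 targets and lower levels for 10. F3, tissue factor, was among the higher (by 0.36) and Gadd45a among the lower (-1.93). Ajuba (-0.22) and Myof (-0.31) lost their calls on TPM, and Ccn1 (-0.18) lost its call with library size alone and stood at 0.01 on TPM. Myof, Tgfb2 and Lats2 also lost theirs with the 6 vector libraries as 1 group (edgeR adjusted p = 0.146, 0.191 and 0.0569).

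Of 21 Hippo pathway genes, 11 rose and 6 fell (52.4% and 28.6%, against 38.3% and 38.1% of all genes, median 0.22). In 8 of them the vector libraries overlapped GFP. The upstream kinases Map4k4 and Taok1 rose by 1.14 and 1.12 and the scaffold Wwc1 by 1.33. Wwtr1, which encodes the YAP relative TAZ, rose by 0.60. The kinase Lats1 read 55.3, 55.1 and 55.0 CPM with GFP, 50.6, 47.0 and 47.9 CPM with Yap1 WT and 108, 101 and 92.4 CPM with the hairpin. It was thus below GFP in 3 vector libraries and above it in the other 3, with an average of 0.34. Its call, and those of Frmd6, Mob1a and Sav1, was lost with the 6 vector libraries as 1 group (edgeR adjusted p = 0.249, 0.0572, 0.068 and 0.0924). The kinase Stk3 and the factor Tead3 fell, with averages of -0.59 and -0.66. On TPM the calls for Wwc2, Amot and Tead1 were lost.

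Notch genes rose in 7 of 12 cases and fell in 3 (58.3% and 25%, against 38.3% and 38.1% of all genes, median 0.50). Hey1, a Notch target, had 3 counts in the GFP group. It read 3.23, 7.44 and 4.27 CPM with Yap1 WT (ratio 72.6, 95% counting interval 24.4 to 355) and 83.3, 73.2 and 73.6 CPM with the hairpin (ratio 1124, interval 384 to 5455). Its fitted average of 7.94 became 8.73 without GFP replicate 1. Other Notch targets on the list differed from Hey1. Heyl was called lower, with an average of -1.85, and Hes1 (-0.04) and Nrarp (0.08) were not called. Hey2 was called higher (0.42), with vector libraries that overlapped GFP. The receptor Notch1 rose by 1.85 and the DNA-binding partner Rbpj by 0.94, while the ligand Jag1 fell by 1.24 on the log2 scale. Jag1 differed between the vectors by 0.03 (95% interval -0.18 to 0.25).

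Cell cycle genes fell in 21 of 36 cases and rose in 11 on average (58.3% and 30.6%, against 38.1% and 38.3% of all genes, median -0.35). With Yap1 WT 13 were higher and 13 lower (median -0.11), and with the hairpin 9 were higher and 22 lower (median -0.64). Of all genes, 32% were higher and 31.8% lower with Yap1 WT, and 39.2% and 39.1% with the hairpin. The licensing genes Cdt1, Mcm6 and Mcm3 rose by 1.41, 1.28 and 1.08, and the cyclin Ccnd3 fell by 0.99 on the log2 scale. Mcm7, Mcm4 and Mcm5 also rose, by 0.72, 0.69 and 0.32, while the licensing genes Mcm2 (0.01) and Cdc6 (0.16) were not called. Among the falls with all 6 vector libraries below GFP were the proliferation genes Top2a (-1.08), Mki67 (-0.91) and Cdk1 (-0.84). Mcm3 read 46.9, 47.7 and 48.9 CPM with GFP, 106, 121 and 109 CPM with Yap1 WT and 88.2, 92.4 and 92.6 CPM with the hairpin. On TPM the calls for Ccnd1, Ccnd2, Bub1b and Rrm2 were lost, and Cdk4 went from -0.17 to 0.02 without passing.

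Extracellular matrix genes fell in 25 of 39 cases and rose in 11 (64.1% and 28.2%, against 38.1% and 38.3% of all genes, median -0.62). Elastin (Eln, chromosome 12, 24978478 to 25021864, plus strand, rn6) read 1576, 1708 and 1651 CPM with GFP, 152, 84.0 and 109 CPM with Yap1 WT and 14.2, 17.5 and 15.3 CPM with the hairpin. Its average fall was 38.7-fold (log2 -5.27, SE 0.14, edgeR adjusted p = 1.17e-11), and the elastic fibre gene Fbln5 fell by 3.18 on the log2 scale. Tnc, a matrix protein of injured tissue, rose by 1.35, and the fall of Timp3 was lost on TPM. Of 19 insulin and IGF genes, 10 fell and 7 rose (52.6% and 36.8%, against 38.1% and 38.3% of all genes, median -0.28). On TPM 7 were lower and 8 higher, with the calls for Insr, Igf2r and Akt2 lost. The adaptor Grb10 fell by 1.17 on the log2 scale, with a difference between the vectors of -0.02 (95% interval -0.15 to 0.11). Of 7 sirtuins, 4 fell and 2 rose (57.1% and 28.6%, against 38.1% and 38.3% of all genes, median -0.36). Sirt7 rose by 1.53 beside Sirt1, and Sirt5 and Sirt2 fell, with averages of -0.62 and -0.36.

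By the smaller of the changes under the vectors, the largest shared rises outside the groups above were Spata48, Bpifb1 and Lcn2. Lcn2, an iron-siderophore binding protein of innate defence, read 1.80, 1.29 and 1.09 CPM with GFP, 141, 270 and 205 CPM with Yap1 WT and 148, 195 and 139 CPM with the hairpin. The average rise was 130-fold, and the vectors overlapped. Spata48 had 2 counts in the GFP group, with ratios of 181 (95% counting interval 49.6 to 1499) and 612 (169 to 5069). Bpifb1 had 1 count there, with ratios of 292 (51.9 to 11585) and 399 (70.6 to 15839). The fitted average of Bpifb1, 7.83, became 9.34 without GFP replicate 3 and 8.55 at equal depth, and that of Spata48, 8.06, became 6.81 at equal depth.

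The largest shared falls outside those groups were Fam180a, G0s2, Adamtsl2, Nsg2 and Adssl1, with averages of -4.69, -4.64, -4.28, -4.09 and -3.68. G0s2, an inhibitor of the lipase ATGL, read 30.9, 44.0 and 36.1 CPM with GFP, 1.90, 1.97 and 2.14 CPM with Yap1 WT and 1.44, 0.506 and 1.29 CPM with the hairpin. All vector libraries were far below GFP.

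A set of genes responded alike to both vectors within a bound of 0.5 on the log2 scale. Defined by a called average of at least 1 in size and a 95% interval of Yap1 WT minus hairpin within 0.5 of 0, it held 209 genes, 94 higher and 115 lower (1.52% of genes tested). Narrow intervals need many reads, and 204 of the 209 had a mean of at least 5 CPM. The chemokine list had 5 such genes of 28 tested, the oxidative phosphorylation list 4 of 34 and the antiviral list 1 of 30. These counts use the same contrasts as the definition and carry no test.

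The 5 highest averages in that set were those of Cxcl6, Ccl7, Pla2g2a, Ccl2 and Akr7a3. The bound limits the size of the difference, and a member can still pass the direct test. Ccl7 did so, higher with Yap1 WT by 0.32 (95% interval 0.16 to 0.49, edgeR adjusted p = 0.00243). Pla2g2a, a secreted phospholipase, read 0.971, 1.08 and 1.43 CPM with GFP, 55.0, 67.5 and 62.7 CPM with Yap1 WT and 55.5, 56.9 and 48.2 CPM with the hairpin (average 5.61, difference 0.21, interval 0.01 to 0.40). The 5 lowest were those of Myh7b, Tmem204, Sorcs2, Mrgprf and Iglon5. Myh7b, a slow myosin heavy chain, read 24.9, 24.6 and 25.2 CPM with GFP, 2.90, 2.99 and 3.68 CPM with Yap1 WT and 3.52, 3.71 and 2.90 CPM with the hairpin (average -2.92, difference -0.08, interval -0.45 to 0.29).

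Markers of cell types moved with the groups. Of all genes tested, 38.3% were higher and 38.1% lower on average. All 10 cardiomyocyte markers fell, and their summed level went from 44827 to 45362 CPM with GFP to 7174 to 12024 CPM with Yap1 WT and 2071 to 2329 CPM with the hairpin. Within Yap1 WT, replicate 2 had the lowest sum (7174 CPM) and the highest Yap1 (812 CPM). Of 10 fibroblast markers, 8 fell on average and Dcn rose (sums 20353 to 21712, 13705 to 18122 and 8774 to 9413 CPM). Taken alone, Yap1 WT had 3 higher and 6 lower, and the hairpin had 1 higher and 9 lower. Pdgfra, counted as a fall, stood at 0.36 with Yap1 WT and -2.30 with the hairpin. Lum, which did not pass on average, stood at 1.01 and -0.78. Dcn, decorin, read 26, 28.6 and 26.8 CPM with GFP, 80.6, 126 and 95.4 CPM with Yap1 WT and 81.5, 110 and 93.1 CPM with the hairpin. Of 8 smooth muscle and pericyte markers, 7 fell and 1, Kcnj8, rose (sums 8786 to 9273, 3780 to 5161 and 3425 to 3835 CPM).

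Markers of less abundant types were low throughout. Shares higher and lower were 62.5% and 0% for endothelial, 12.5% and 25% for macrophage and 25% and 50% for epicardial markers. Those of all genes were 38.3% and 38.1%. Of 8 endothelial markers, 5 rose and none fell (sums 46.1 to 47.2, 61.0 to 66.7 and 71.8 to 76.1 CPM). The average of Vwf, 2.20, became 2.84 without GFP replicate 2. Of 8 macrophage markers, Adgre1 rose, C1qa and Fcer1g fell and 5 did not pass (sums 41.6 to 46.7, 54.7 to 58.6 and 28.4 to 36.9 CPM). The fall of C1qa, -2.52, became -4.52 without hairpin replicate 1, and the call for Fcer1g was lost on TPM and with the vectors as 1 group. Of 8 epicardial markers, 2 rose and 4 fell (sums 81.2 to 84.7, 78.5 to 82.7 and 79.3 to 88.9 CPM). Upk3b had 1 count in the hairpin group, a GFP-to-hairpin ratio of 245 (95% counting interval 43.7 to 9680), and its average of -4.71 became -6.01 without hairpin replicate 1. Of 3 neural and glial markers, 2 rose (sums 39.1 to 40.6, 52.0 to 63.1 and 137 to 158 CPM). The part of these shifts, and of depth, in the gene group changes was not tested.

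**Figure D5:**
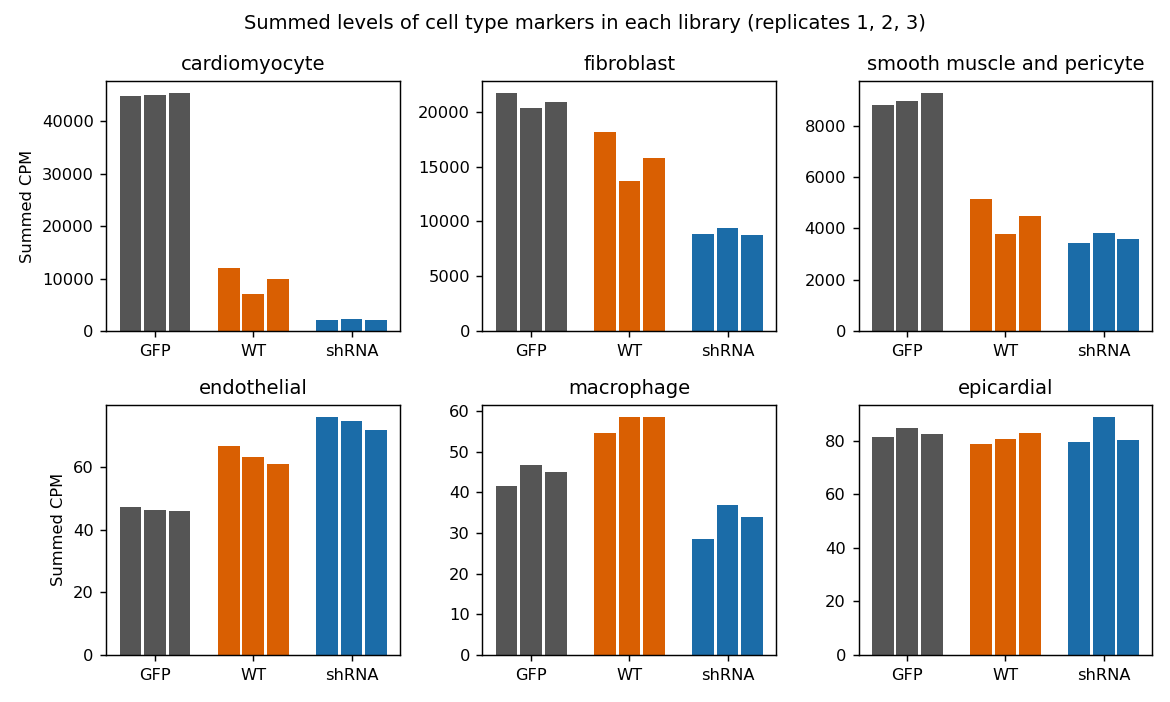
Summed CPM of the markers of 6 cell types in each library, bars in the order of replicates 1, 2 and 3 within GFP, Yap1 WT and Yap1 shRNA. Cardiomyocyte sums are at least 44827 CPM with GFP and at most 12024 CPM with either vector, and macrophage sums are at most 58.6 CPM in all libraries.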

How the data were processed

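RNA-seq (oligo(dT)-enriched RNA, BGISEQ-500) was available for 9 libraries, 3 each with GFP, Yap1 WT and Yap1 shRNA. Both units were deposited for every library: expected counts for each gene, which the authors estimated from their reads, and TPM, which they scaled within each library. The submitters' processing notes name HISAT2, Bowtie2, RSEM 1.3.1, DESeq2 1.4.5 and build rn6 without their roles. Whether counting used strand is not given in the sources used here.

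Expected counts, of which 89.8% were whole to 2 decimals, were rounded, filtered with filterByExpr (13708 of 18629 genes kept), TMM-scaled and fitted over all 9 libraries with edgeR 4.0.16 in R 4.3.3, checked on simulated data. The contrast gave each vector group a weight of 0.5, and Benjamini-Hochberg adjusted p under 0.05 was called. Alternatives used limma 3.58.1, DESeq2 1.42.0, other scalings and filters, and left-out libraries; TPM were tested as log2(TPM + 1). Ratios against groups with 1 to 3 counts carry exact counting intervals, and a group at 0 was set to 3 counts; both cover counting error only.

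The comparison and the gene lists were chosen with earlier results of these data known. Named genes are Yap1 and Sirt1, the 10 largest shared rises and falls, the 5 highest and 5 lowest equal responses, up to 4 called members of each list by p, and YAP or Hippo genes that differed between the vectors. Isg20, Il15, Hspb7, Bcl2, Flnc, Kcnj8, Slc2a4, Nfkb2, Tnip1, Ifnb1, Oas2 and Csf2 were singled out after their values were seen. So were Heyl, Hey2, Hes1, Nrarp, Pdgfra, Lum, Slc2a1, Hk2, Pkm, Eno1, Fosb, Perm1 and Col15a1. The same holds for Top2a, Mki67, Cdk1, Mcm2, Mcm4, Mcm5, Mcm7, Cdc6 and genes named only for a lost call. Promoters came from RefSeq (GRCr8), a build other than that of the counts. Some single-gene results are not reported here.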

Additional observations from a re-analysis of the deposited data

Results flagged for a closer look

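Yap1 was called in opposite directions under the vectors, 1.77 with Yap1 WT and -1.03 with the hairpin (log2 against GFP), and the direct test gave a difference of 2.7965 (edgeR adjusted p = 1.59e-09, with all 3 Yap1 WT libraries above all 3 hairpin libraries). Lats1, a Hippo kinase, was called lower with Yap1 WT (-0.18) and higher with the hairpin (0.87). The difference was -1.0529 (edgeR adjusted p = 3.41e-08), with all 3 Yap1 WT libraries below all 3 hairpin libraries. Only the genes named by rule were searched for this pattern. Other list members also had opposite signs under Yap1 WT and the hairpin, such as Fosb (-0.89 and 2.23), Perm1 (-0.73 and 1.20) and Col15a1 (1.29 and -0.58).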

How the results depend on the processing

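With a minimum fold of 1.5 tested, 2591 genes were higher and 2309 lower for the vector average, 1474 and 1404 for Yap1 WT against GFP, 3337 and 2973 for the hairpin against GFP, and 992 and 1556 for Yap1 WT against the hairpin. On log2(TPM + 1), 2894 genes were lower with Yap1 WT than with GFP. The YAP and TEAD target median of 0.05 turned to -0.0168 with no count filter and ran from -0.0289 to 0.0918 when single libraries were left out. With no count filter the PPAR median turned to -0.0206. At 5 CPM in 3 libraries the macrophage median turned to 0.0371 and the epicardial median to 0.0741. The cause was not tested. Leaving out single libraries gave 5031 to 5273 genes higher and 4942 to 5454 lower for the average. Replicate numbers did not pair the libraries: same-numbered deviations correlated at -0.03 to 0.09. A replicate block gave 5281 higher and 5243 lower. Hairpin libraries had the lowest depth, and thinned to equal depth the average gave 4829 higher and 4693 lower.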
